A study of Homo sapiens with 76 samples.

Results

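Replication-licensing genes were used to pick out 2 groups of single HEK293 cells, the 19 cells that carried the highest share of their transcripts and the 19 that carried the lowest, out of 76 cells. HEK293 is an established human embryonic kidney line. All 76 cells were untreated cells of that line, grown in DMEM with fetal calf serum and captured in 1 run on a Fluidigm C1 chip, so both groups share line, medium and run. The assay counted unique molecular identifiers (UMIs), random tags that let each captured cDNA molecule be counted once, at the 5′ ends of polyadenylated transcripts. The labels name no cultures, so a group of cells counts as 1 sample, and no test between the groups was made. Ratios below are given with 95% intervals that cover counting error only and do not cover the spread between cells, which is shown by the lowest, median and highest cell.

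Before a cell copies its DNA, origins are licensed in G1 phase: the origin recognition complex, CDC6 and CDT1 load the MCM helicase, a ring of the proteins MCM2 to MCM7, onto DNA. CDC45 and the GINS complex, of which GINS2 is a subunit, then activate the helicase at the start of S phase, a step that cyclin E (CCNE1, CCNE2) with CDK2 promotes. PCNA is the sliding clamp of the DNA polymerases, UNG removes uracil from new DNA, and DTL directs the destruction of CDT1 at loaded PCNA. Transcription of many of these genes is driven by E2F factors around the change from G1 to S phase.

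The 15 genes MCM2 to MCM7, PCNA, GINS2, UNG, CDC6, CDT1, CDC45, CCNE1, CCNE2 and DTL were summed in each cell and divided by the cell's gene UMIs, and the cells were ranked by this licensing share; both groups were thus chosen by these summed UMI shares. The 19 licensing-high cells had shares of 0.256% to 0.585% (median 0.288%) and the 19 licensing-low cells 0.0571% to 0.131% (median 0.104%). These shares chose the groups and are a description only. At the upper bound, the cell of rank 19 had 0.256% and the cell of rank 20, left out, had 0.250%. At the lower bound, the cell of rank 58 had 0.131% and the cell of rank 57, left out, had 0.137%. The share rests on few molecules, with 22 to 130 licensing UMIs in a licensing-high cell (median 74) and 7 to 43 in a licensing-low cell (median 22). The exact 95% counting interval lay above the median of all cells (0.207%) in 13 of the 19 licensing-high cells, and below it in 16 of the 19 licensing-low cells. For 12 of the 19 licensing-high cells the interval reached the share of the cell of rank 20, so membership near the bounds is not resolved at this depth. Over all 76 cells the licensing UMIs varied 7.68 times as much as counting alone gives (Pearson dispersion, 1 for counting alone).

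**Figure D1:**
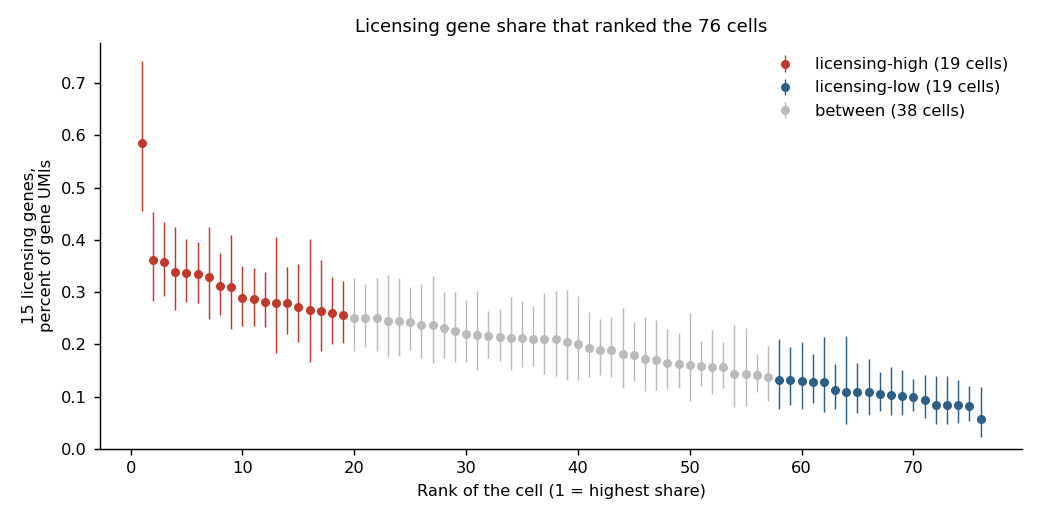
Licensing share of each of the 76 cells, as percent of its gene UMIs, by rank, with exact 95% counting intervals. The 19 licensing-high cells run from 0.256% to 0.585% and the 19 licensing-low cells from 0.0571% to 0.131%, with no gap at either bound.

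Total depth overlapped between the groups. Gene UMIs per cell were 8272 to 41539 (median 25810) in licensing-high cells and 7305 to 43392 (median 21107) in licensing-low cells. The ERCC spike-in RNA that each chamber received gave medians of 2323 and 2170 UMIs per cell in licensing-high and licensing-low cells. The median number of genes with a UMI was 4249 in licensing-high cells and 3680 in licensing-low cells. Markers of other cell types were at or near 0 where they define blood or liver: the blood list (HBA1 and CD74 measured) had 2 UMIs in licensing-high and 2 in licensing-low cells, and the liver list (APOA1, FGG) had 0 UMIs in both groups. The epithelial list held 49 UMIs in licensing-high and 36 in licensing-low cells, mostly KRT18, and the fibroblast and muscle list 84 and 84, mostly VIM.

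Other whole-cell measures moved with the grouping. Transcripts of cytosolic ribosomal protein genes took 18.8% to 31.9% of gene UMIs in licensing-high cells (median 27.1%), against 24.4% to 34.1% in licensing-low cells (median 31.9%). Transcripts of genes of 3000 bases or more took 8.40% to 19.7% (median 11.9%) in licensing-high cells, against 7.54% to 14.6% (median 9.03%) in licensing-low cells. Across the 76 cells the licensing share had a Pearson r of -0.52 with the ribosomal protein share and of 0.51 with the long-transcript share, given as a description, since all 3 shares come from the same libraries and totals. Its r with gene UMIs was 0.099. The cell of rank 1 stood apart, with a licensing share of 0.585%, the lowest ribosomal protein share (18.8%) and the highest long-transcript share (19.7%) of all 76 cells, at 11620 gene UMIs. Counts are therefore also given without it. The part of these measures in the gene results was not tested beyond the scales and length classes given below.

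To see each licensing gene in groups that it did not choose, the cells were ranked again by the other 14 genes. The top and bottom 19 cells then shared 16 to 19 cells with the groups above. They are called the high and low cells here. A gene's pooled level is its UMIs summed over the cells of a group, per 10000 gene UMIs outside the 15 licensing genes. Of the 15 genes, 13 were at least 1.5-fold higher in the cells that were high for the other 14, and 12 of the 13 had intervals above 1, the exception being CCNE1, with 4 UMIs in high and 1 in low cells and a ratio of 3.31 (0.328 to 163). Over the same 15 rankings, 10.8% of the comparisons of 1600 other genes reached 1.5-fold higher; 6 of the 15 genes had a mean under the 2 UMIs set for those 1600. The groups thus separate the genes that name them, among them the markers MCM2, MCM7, PCNA and CDC6.

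Among the helicase genes, left out of the ranking in turn, MCM2 had its lowest, median and highest cell at 1.82, 4.33 and 7.44 UMIs per 10000 in the high cells, against 0, 1.21 and 3.24 in the low cells. Its pooled ratio was 2.80 (2.12 to 3.75), and single cells of the groups overlapped between 1.82 and 3.24. MCM7, the licensing gene with most UMIs (666 of 3511 over all cells), had its lowest, median and highest cell at 0.696, 5.48 and 8.86 UMIs per 10000 in the high cells, against 0.561, 1.95 and 5.30 in the low cells, with a pooled ratio of 2.59 (2.02 to 3.35). The ratios of MCM3, MCM4, MCM5 and MCM6 lay at 2.50, 2.77, 2.56 and 2.52, so all 6 helicase subunits were between 2.50 and 2.80-fold higher, within each other's intervals.

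PCNA, the clamp, had a ratio of 2.16 (1.63 to 2.88), with the lowest, median and highest cell at 0, 3.35 and 14.7 UMIs per 10000 in the high cells, against 0, 0.948 and 4.43 in the low cells. UNG had the highest ratio of the genes with more than 10 UMIs in each group, 4.47 (2.50 to 8.57), and the median low cell had no UNG UMI. The loading factors CDT1 and CDC6 had ratios of 2.75 (1.55 to 5.14) and 1.86 (1.24 to 2.84). CCNE2 and DTL, with 31 and 27 UMIs in high cells against 6 and 6 in low cells, had ratios of 4.15 (1.70 to 12.2) and 3.74 (1.51 to 11.1). The helicase activators stood at the low end of the 15 genes. GINS2 was at 1.27 (0.934 to 1.73) and CDC45 at 1.34 (0.717 to 2.55), both under 1.5-fold with intervals that include 1. GINS2 had 415 UMIs over all cells, more than CDC6 (239).

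**Figure D2:**
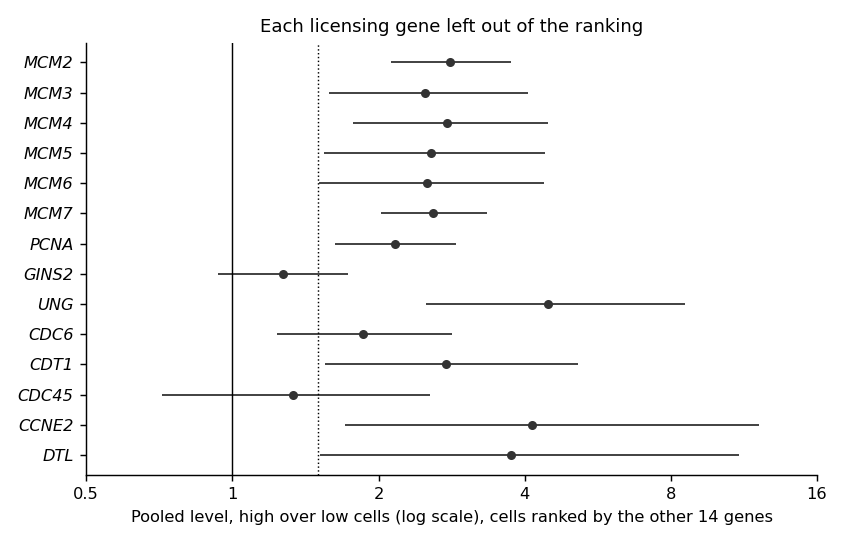
Pooled level of each licensing gene in high over low cells when cells were ranked by the other 14 genes (log axis), with exact 95% counting intervals; the dotted line marks 1.5-fold, and CCNE1 (4 and 1 UMIs) is not drawn. GINS2 and CDC45 lie below the line at 1.27 and 1.34, and the other 12 genes lie above it.

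Promoters of genes of both kinds are shown here because these genes move together or apart along the ranking: the 4 marker genes, TYMS as a gene high with them, and CCNB1 and CKS2 as genes low with them. The sequences run 5′ to 3′ on the gene's strand, from 250 bases before to 50 after the start, from RefSeq on build GRCh38.p14. In the first 5, capitals mark E2F-type letters (TTTGGCGC, TTTCCCGC, TTTCGCGC or TTTGCCGC on either strand). In the last 2, capitals mark CCAAT boxes and the letters TTTGAA of the cell cycle homology region, a motif known from genes of G2 phase, each on either strand.
MCM2 (chr3:127598161-127598460, plus strand): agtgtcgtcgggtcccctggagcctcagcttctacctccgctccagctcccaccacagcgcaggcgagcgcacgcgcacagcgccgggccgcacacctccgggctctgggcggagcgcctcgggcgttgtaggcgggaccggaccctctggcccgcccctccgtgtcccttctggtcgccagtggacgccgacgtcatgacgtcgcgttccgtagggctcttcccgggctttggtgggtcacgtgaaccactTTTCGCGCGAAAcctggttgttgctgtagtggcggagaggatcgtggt
MCM7 (chr7:100101348-100101647, minus strand): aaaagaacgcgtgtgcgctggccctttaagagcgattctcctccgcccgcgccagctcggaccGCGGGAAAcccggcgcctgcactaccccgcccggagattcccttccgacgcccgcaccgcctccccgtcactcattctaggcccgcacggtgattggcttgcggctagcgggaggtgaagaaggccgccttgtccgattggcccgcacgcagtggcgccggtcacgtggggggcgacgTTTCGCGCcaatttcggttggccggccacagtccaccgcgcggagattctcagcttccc
PCNA (chr20:5126573-5126872, minus strand): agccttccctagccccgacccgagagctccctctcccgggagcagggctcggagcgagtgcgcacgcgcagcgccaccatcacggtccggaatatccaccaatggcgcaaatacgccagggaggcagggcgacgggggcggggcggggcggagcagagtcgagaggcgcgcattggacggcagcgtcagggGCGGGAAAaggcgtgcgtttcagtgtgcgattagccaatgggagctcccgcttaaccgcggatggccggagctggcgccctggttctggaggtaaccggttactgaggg
CDC6 (chr17:40287629-40287928, plus strand): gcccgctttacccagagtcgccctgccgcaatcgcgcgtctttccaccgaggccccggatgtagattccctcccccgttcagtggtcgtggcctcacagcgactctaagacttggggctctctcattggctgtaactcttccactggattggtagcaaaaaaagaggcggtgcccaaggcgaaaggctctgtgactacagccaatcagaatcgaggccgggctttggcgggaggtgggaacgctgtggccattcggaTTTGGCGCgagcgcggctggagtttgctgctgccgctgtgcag
TYMS (chr18:657403-657702, plus strand): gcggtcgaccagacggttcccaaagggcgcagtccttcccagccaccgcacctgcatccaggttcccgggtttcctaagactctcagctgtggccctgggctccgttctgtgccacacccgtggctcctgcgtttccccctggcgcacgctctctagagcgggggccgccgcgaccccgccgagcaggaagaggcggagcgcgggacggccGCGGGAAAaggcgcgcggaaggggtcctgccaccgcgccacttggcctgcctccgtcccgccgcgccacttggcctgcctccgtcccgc
CCNB1 (chr5:69166900-69167199, plus strand): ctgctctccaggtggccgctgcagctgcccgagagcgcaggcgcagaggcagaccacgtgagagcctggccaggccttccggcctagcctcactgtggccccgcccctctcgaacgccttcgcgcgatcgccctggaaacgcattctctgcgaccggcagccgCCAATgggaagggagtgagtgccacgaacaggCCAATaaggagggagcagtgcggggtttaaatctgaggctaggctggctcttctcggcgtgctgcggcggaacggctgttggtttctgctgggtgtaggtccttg
CKS2 (chr9:89310945-89311244, plus strand): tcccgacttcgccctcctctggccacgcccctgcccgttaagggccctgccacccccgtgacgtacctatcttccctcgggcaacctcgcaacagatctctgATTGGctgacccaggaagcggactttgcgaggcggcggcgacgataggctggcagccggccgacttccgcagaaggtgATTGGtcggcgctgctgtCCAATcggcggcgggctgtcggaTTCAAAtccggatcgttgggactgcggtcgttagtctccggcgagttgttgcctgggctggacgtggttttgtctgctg

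In MCM2 the capitals are a run in which one E2F-type match overlaps another on the opposite strand. The E2F-type letters stood in 9 of the 12 licensing genes with a promoter entry, against 908 of all 27305 promoters of the same length (3.33%) and 6.97% of the measured genes with an entry. UNG, CDC45 and CCNE1 held none in this window. Of the 12 genes that stood highest beside the licensing genes, 3 held them (TYMS, CDC25A and DNMT1). Among all genes at least 1.5-fold higher, 10 of the 162 with an entry did (6.17%), near the 6.97% of all measured genes. TTTGAA was found in 3 of the 9 lowest genes with an entry (CKS2, CCNB2 and KPNA2), in 0 of the 12 licensing promoters, and in 15.4% of all promoters. It was also found in 4 of the 52 genes at least 1.5-fold lower with an entry (7.69%) and in 9.88% of those higher, near the 9.25% of all measured genes. CCAAT boxes, which are not capitalised in the first 5 sequences, were in 9 of the 12 licensing promoters, in 5 of the 9 lowest genes with an entry and in 35.7% of all promoters. They were in 40.1% of the higher, 48.1% of the lower and 41.9% of all measured genes. A match is a run of letters and was not examined as a binding site.

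Across the other genes, 1600 had a mean of at least 2 UMIs over all 76 cells and were compared. Of these, 174 were at least 1.5-fold higher in licensing-high cells (10.9%) and 66 at least 1.5-fold lower (4.12%). The counting interval excluded 1 for 159 of the 174 and 62 of the 66. At 2-fold there were 38 higher and 7 lower genes. The median log2 ratio of all 1600 genes was 0.03. Without the cell of rank 1 the counts were 172 higher and 66 lower genes, with 163 and 60 of them shared.

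The split depended on the scale. With ribosomal protein genes, mitochondrial genes and the 10 most abundant genes taken out of the totals it was 132 higher and 94 lower, and with TMM factors 126 and 97. Per spike-in UMI, where the median of all genes moved to a log2 ratio of 0.26, it was 369 and 20. Genes with longer transcripts also had higher ratios: in 4 classes of rising length (377, 376, 376 and 376 genes) the median log2 ratio was -0.09, 0.02, 0.11 and 0.23, with 8, 30, 50 and 81 genes higher. Measured relative to genes of like length, 111 genes were higher, 106 of them among the 174, and 88 lower.

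The 12 genes that stood highest in licensing-high cells were ranked by the lower bound of the counting interval of the ratio. The first 2 were enzymes linked to DNA replication. By the ratio itself DHCR7, ACTR2 and PVR, given below, stood above TYMS. USP1, the enzyme that removes ubiquitin from PCNA and FANCD2, had its lowest, median and highest cell at 0, 1.90 and 6.22 UMIs per 10000 in licensing-high cells, against 0, 0 and 2.35 in licensing-low cells. Every licensing-high cell but 1 held USP1 UMIs, against 9 of 19 licensing-low cells, and the pooled ratio was 3.49 (2.30 to 5.48). TYMS, which makes thymidylate, had its lowest, median and highest cell at 0, 3.38 and 6.04 UMIs per 10000 in licensing-high cells, against 0, 0.949 and 3.24 in licensing-low cells. Its pooled ratio was 3.12 (2.22 to 4.48), while 3 licensing-high cells had no TYMS UMI and 14 of 19 lay above the licensing-low median, so single cells overlapped.

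CDC25A, the phosphatase that activates CDK2 at the start of S phase, had a ratio of 2.63 (1.63 to 4.40), although the highest single cell was a licensing-low one at 5.48 UMIs per 10000, against 3.67 in the highest licensing-high cell. DNMT1, which copies DNA methylation onto new strands, had its lowest, median and highest cell at 0, 1.45 and 4.21 UMIs per 10000 in licensing-high cells, against 0, 0 and 2.85 in licensing-low cells. Its ratio was 2.55 (1.62 to 4.14), and 18 licensing-high cells but 8 licensing-low cells held a UMI. DEK, a chromatin-binding protein, had a ratio of 2.00 (1.58 to 2.56) from 237 and 98 UMIs in licensing-high and licensing-low cells.

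The rest of the 12 highest genes have other roles. DHCR7, the enzyme of a last step of cholesterol synthesis, had a ratio of 3.50 (2.07 to 6.22), with the lowest, median and highest cell at 0, 1.39 and 4.05 UMIs per 10000 in licensing-high cells, against 0, 0.468 and 2.74 in licensing-low cells. ACTR2, a subunit of the ARP2/3 actin nucleator, was at 3.26 (1.83 to 6.19), PVR, the poliovirus receptor CD155, at 3.15 (1.76 to 5.99), and ZC3H15, a partner of the GTPase DRG1, at 2.61 (1.82 to 3.80). LUC7L3, a splicing factor, had a smaller ratio on more molecules, 1.95 (1.62 to 2.36) from 377 UMIs in licensing-high and 160 in licensing-low cells, and 18 of 19 licensing-high cells lay above the licensing-low median. The nuclear pore basket protein TPR was at 2.23 (1.55 to 3.26) and DNTTIP2 at 2.38 (1.55 to 3.73).

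At the other end, CCNB1 stood furthest from 1 of all genes compared. Cyclin B1 drives entry into mitosis with CDK1. CCNB1 had its lowest, median and highest cell at 0, 0.525 and 2.20 UMIs per 10000 in licensing-high cells, against 0, 2.16 and 9.83 in licensing-low cells. The pooled ratio was 0.214 (0.140 to 0.318), from 32 UMIs in licensing-high and 124 in licensing-low cells, and 17 of 19 licensing-high cells lay below the licensing-low median. BIRC5 (survivin), a chromosomal passenger protein of mitosis, had its lowest, median and highest cell at 0, 1.17 and 2.79 UMIs per 10000 in licensing-high cells, against 0, 2.85 and 6.53 in licensing-low cells. All 19 licensing-high cells lay below the licensing-low median, and the ratio was 0.373 (0.268 to 0.512). CKS2, a CDK-binding subunit, was at 0.484 (0.384 to 0.608), cyclin B2 (CCNB2) at 0.489 (0.315 to 0.750) and the import receptor KPNA2 at 0.625 (0.508 to 0.768).

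Some of the 12 lowest genes are not known for mitosis. PIGP, of glycosylphosphatidylinositol anchor synthesis, had its lowest, median and highest cell at 0, 0.281 and 1.98 UMIs per 10000 in licensing-high cells, against 0, 1.17 and 4.65 in licensing-low cells, with a ratio of 0.373 (0.228 to 0.597). BLVRB, a biliverdin reductase, was at 0.371 (0.224 to 0.600), and JAGN1, an endoplasmic reticulum protein, at 0.517 (0.366 to 0.725). C14orf1, the human counterpart of yeast ERG28, was at 0.492 (0.326 to 0.735), TMEM258, a subunit of the oligosaccharyltransferase, at 0.637 (0.548 to 0.738), and the vault RNA VTRNA1-3 at 0.547 (0.395 to 0.754). RPL15P3, at 0.596 (0.500 to 0.710), is a ribosomal protein pseudogene whose reads may be shared with its parent gene, so its value is uncertain.

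**Figure D3:**
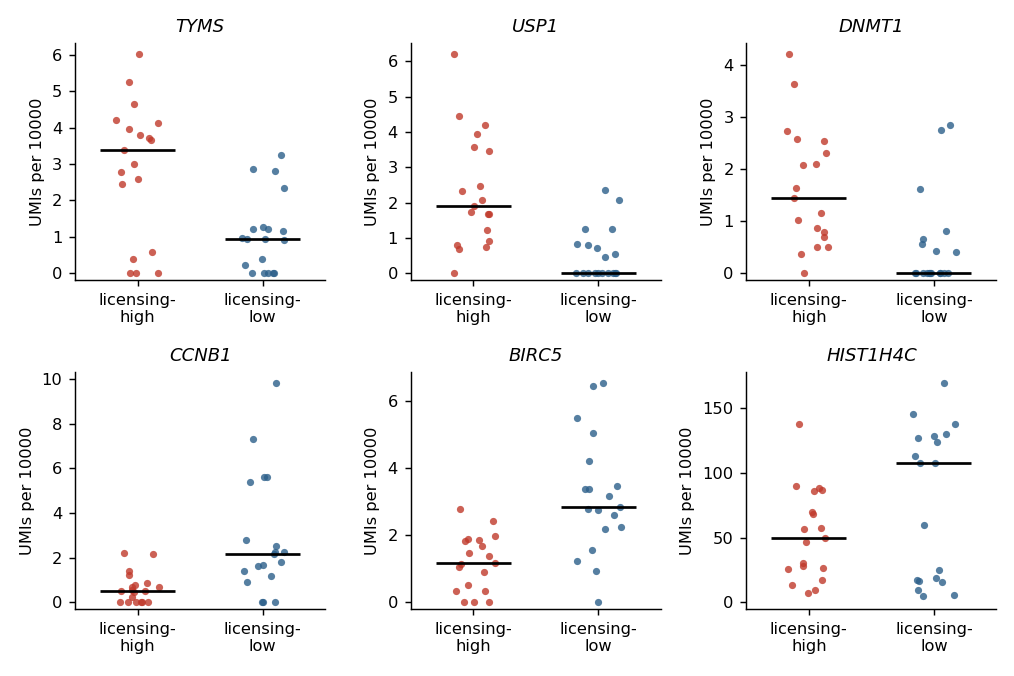
Level of 6 genes in each of the 19 licensing-high cells (left, red) and 19 licensing-low cells (right, blue), in UMIs per 10000 gene UMIs outside the 15 licensing genes; each point is a cell and bars are medians. CCNB1 has medians of 0.525 and 2.16 in licensing-high and licensing-low cells, TYMS 3.38 and 0.949, and HIST1H4C 49.95 and 107 with the licensing-low cells in separate high and low sets.

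In 4 lists of genes of replication and chromatin other than the 15, 27 of 61 measured members were at least 1.5-fold higher and 0 at least 1.5-fold lower, against 10.9% higher and 4.12% lower over all 1600 genes. All lists were chosen with earlier results of these data known, so counts of their members are a description only. Of 15 measured origin and fork factors, 4 were higher and the median log2 ratio was 0.40, against 0.03 over all 1600 genes. FEN1, the nuclease that trims Okazaki fragments, had 2.13 UMIs per 10000 in licensing-high cells and 0.959 in licensing-low cells, a ratio of 2.22 (1.52 to 3.32). TIPIN of the fork protection complex was at 2.18 (1.38 to 3.53), KIAA0101 (PAF15), a PCNA-binding protein, at 1.76 (1.30 to 2.43), and the clamp loader subunit RFC2 at 1.81 (1.13 to 2.97). Geminin (GMNN), the inhibitor of CDT1, was under the 1.5-fold bound at 1.41 (1.14 to 1.74), as was RPA2 of the single-strand binding complex at 1.28 (1.04 to 1.57).

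Deoxynucleotide supply had 7 of 15 measured members higher and a median log2 ratio of 0.52. RRM2, the small subunit of ribonucleotide reductase, had its lowest, median and highest cell at 0.515, 2.10 and 5.87 UMIs per 10000 in licensing-high cells, against 0, 0.774 and 3.92 in licensing-low cells, a ratio of 1.96 (1.39 to 2.80). DUT, which breaks down dUTP, was at 1.81 (1.44 to 2.28), DCTPP1, which breaks down dCTP, at 1.95 (1.51 to 2.55), and thymidine kinase TK1 at 1.87 (1.27 to 2.80). The folate enzymes MTHFD2 and MTHFD1 were at 2.12 (1.44 to 3.16) and 1.73 (1.13 to 2.71). The summed list took a median of 44.3 UMIs per 10000 in licensing-high cells and 28.3 in licensing-low cells, with ranges of 25.1 to 51.1 and 20.2 to 34.4.

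Of the repair list, 4 of 8 measured members were higher, with a median log2 ratio of 0.44. Besides USP1 these were UBE2T, which ubiquitinates FANCD2, at 2.06 (1.55 to 2.77), the recombination protein RAD51C at 1.96 (1.29 to 3.04) and the abasic site nuclease APEX1 at 1.51 (1.06 to 2.17). The end-joining proteins XRCC5 and XRCC6 had ratios of 1.10 (0.880 to 1.38) and 1.15 (0.911 to 1.45), so neither was resolved from 1.

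Chromatin assembly had the highest median of the larger lists, with 12 of 23 measured members higher and a median log2 ratio of 0.68. Relative to genes of like length that median was 0.39. The histone chaperones NASP, NAP1L1 and NAP1L4 were at 1.88 (1.41 to 2.51), 1.67 (1.39 to 2.01) and 1.77 (1.12 to 2.86). SUPT16H of the FACT complex was at 1.64 (1.18 to 2.31), RBBP4, a subunit of the CAF-1 assembly complex, at 1.61, and the remodeller HELLS at 1.61 (1.14 to 2.29). SLBP, which binds the stem-loop of histone messenger RNA, was at 2.09 (1.32 to 3.39). The list also holds the cohesin subunits SMC1A (1.81) and SMC3 (1.60) and the acidic chaperone ANP32B (1.71). HAT1, which acetylates new histone H4, had 37 UMIs in licensing-high cells and 38 in licensing-low cells, a ratio of 0.807 (0.499 to 1.30). Without the cell of rank 1, 27 members of these 4 lists were again higher.

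Of the 5 measured G1/S regulators outside the 15 genes, CDC25A and CDK4 were at least 1.5-fold higher in the pooled level. CDK4, the kinase partner of cyclin D, was at 1.54 (1.17 to 2.05), but its cell medians were 2.72 UMIs per 10000 in licensing-high and 2.74 in licensing-low cells, and 9 of 19 licensing-high cells lay above the licensing-low median. MYC, at 0.980, was not resolved from 1.

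**Figure D4:**
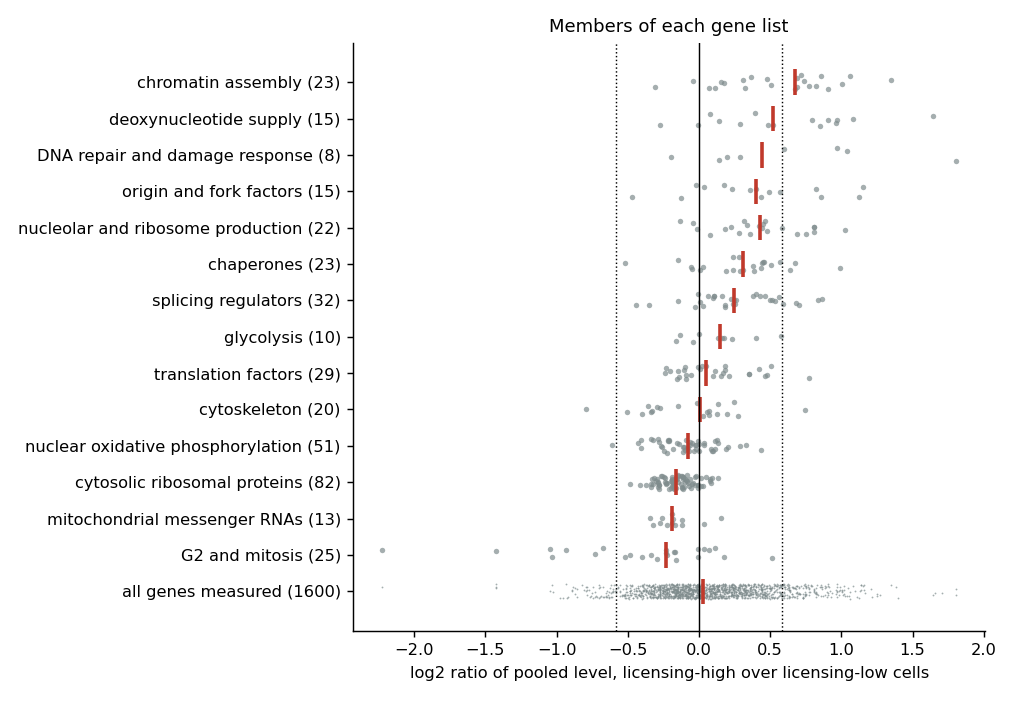
Log2 ratio of pooled level, licensing-high over licensing-low cells, for the measured members of each list (grey points; members measured in brackets) with the list's median in red and 1.5-fold bounds dotted. Chromatin assembly (0.68) and deoxynucleotide supply (0.52) lie to the right of all 1600 genes (0.03), and G2 and mitosis (-0.23) to the left.

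Genes of G2 and mitosis had 7 of 25 measured members lower and 0 higher, against 4.12% lower and 10.9% higher over all 1600 genes, with a median log2 ratio of -0.23. Those not yet described were the kinesin KIF2C, at 0.603 (0.430 to 0.841), and UBE2C, the E2 enzyme of the anaphase-promoting complex. UBE2C had its lowest, median and highest cell at 0, 2.47 and 6.17 UMIs per 10000 in licensing-high cells, against 0, 2.32 and 14.6 in licensing-low cells. Its pooled ratio was 0.523 (0.418 to 0.654), but the medians did not go the same way, and 10 of 19 licensing-high cells lay above the licensing-low median. The list did not move as one. TOP2A was at 0.697 (0.543 to 0.893), short of the bound, and CDK1 at 0.857 (0.692 to 1.06), PTTG1 at 0.851 (0.649 to 1.12), AURKB at 0.816 (0.570 to 1.17) and PRC1 at 0.852 (0.607 to 1.19) were not resolved from 1. CKAP2, a spindle protein, had the highest ratio of the 25 measured members at 1.43 (1.00 to 2.06). Per spike-in UMI, 5 members were lower, 1 was higher and the median was -0.00. Over all 1600 genes on that scale 20 were lower, 369 were higher and the median was 0.26. The median of the list thus lay below that of all genes on both scales.

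Several members of these lists had a mean under 2 UMIs and were not among the 1600 genes; those named here were picked after their values were seen. PLK1, a kinase of mitosis, had 3 UMIs in licensing-high cells and 47 in licensing-low cells, in 3 and 13 of the 19 cells, a ratio of 0.05 (0.01 to 0.16). CDC20, an activator of the anaphase-promoting complex, had 30 UMIs in licensing-high cells and 65 in licensing-low cells, a ratio of 0.382 (0.240 to 0.598), and AURKA had 12 UMIs in licensing-high cells and 34 in licensing-low cells, a ratio of 0.292 (0.138 to 0.579). Of the 45 G2 and mitosis genes below the minimum, 31 had ratios below 1 and 14 above 1; the interval lay below 1 for 11 and above 1 for 0. Those above 1 include cyclin A2 (CCNA2), with 27 UMIs in licensing-high cells and 11 in licensing-low cells, a ratio of 2.03 (0.977 to 4.54), and the checkpoint kinase BUB1B, with 13 UMIs in licensing-high cells and 3 in licensing-low cells, a ratio of 3.59 (0.987 to 19.6). Of the 30 repair list genes below the minimum with a UMI in either group, 25 had ratios above 1 and 5 below 1. Among these 30 the interval lay above 1 for 9 and below 1 for 0. The mismatch repair gene MSH6 had 70 UMIs in licensing-high cells and 14 in licensing-low cells, a ratio of 4.14 (2.31 to 7.97). The nuclease EXO1 had 30 UMIs in licensing-high cells and 3 in licensing-low cells, and the CAF-1 subunit CHAF1A had 35 UMIs in licensing-high cells and 7 in licensing-low cells, a ratio of 4.14 (1.81 to 11.1). The same counts were not made over all genes below the minimum, so those of the lists are a description only. With no minimum, 2996 of 10569 genes were at least 1.5-fold higher and 2092 at least 1.5-fold lower.

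E2F1, a transcription factor of the G1 to S change, had 22 UMIs in 11 licensing-high cells and 0 in licensing-low cells. The lower limit of the 95% counting interval of its ratio was 4.54. The cell cycle inhibitor CDKN1A had 26 UMIs in licensing-high cells and 4 in licensing-low cells, in 9 and 3 cells. Its ratio was 5.39 (1.87 to 21.2). Cyclin D1 (CCND1) had 36 UMIs in licensing-high cells and 12 in licensing-low cells, a ratio of 2.49 (1.26 to 5.25). CCND1 UMIs were in 11 licensing-high and 10 licensing-low cells, with cell medians of 0.495 and 0.402 UMIs per 10000. Of the licensing-high cells, 10 lay above the licensing-low median of CCND1 and 9 below it. These genes were picked after their values were seen. Of the 25 G1/S regulators below the minimum, 16 had ratios above 1 and 9 below 1. The interval lay above 1 for 8 and below 1 for 0. Here too the same counts were not made over all genes below the minimum, so they are a description only.

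Histone H4 messenger RNA had a ratio below 1, unlike SLBP and the histone chaperones, but short of the 1.5-fold bound. Most messenger RNAs of replication-dependent histones end in a stem-loop in place of a poly(A) tail, and the assay primed on poly(A). Of 66 such genes listed, 36 were in the table and the other 30 were not analysed here. HIST1H4C, a replication-dependent histone gene and the only one of its list above the minimum, had its lowest, median and highest cell at 7.67, 49.95 and 138 UMIs per 10000 in licensing-high cells, against 4.65, 107 and 170 in licensing-low cells. The pooled ratio was 0.746 (0.707 to 0.787), a smaller difference than that of the medians. The licensing-low cells lay at both ends: 10 of them had over 1% of their gene UMIs in HIST1H4C and 8 had under 0.3%, with 1 cell between. Of the licensing-high cells 1 was over 1%, 7 were under 0.3% and 11 lay between. Cells outside both groups also lay at both ends, from 0.0567% to 2.14%, so this spread was not particular to licensing-low cells. HIST1H2BK, below the minimum, had 31 UMIs in licensing-high and 18 in licensing-low cells, a ratio of 1.43 (0.774 to 2.71).

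Licensing-low cells were also spread widely in the summed G2 and mitosis list, at 0.331% to 1.71% of gene UMIs (median 0.851%), against 0.424% to 1.14% (median 0.655%) in licensing-high cells. Of the 19 cells of all 76 with the highest share of that list, 3 were licensing-high and 12 licensing-low. Of the 19 with the highest HIST1H4C share, 1 was licensing-high and 7 licensing-low. A licensing-low cell could thus be high in both (5 cells), in 1 of the lists or in neither (5 cells), while 15 of the 19 licensing-high cells were in neither set. By these measures the licensing-low group held unlike cells, and its pooled levels average over them.

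**Figure D5:**
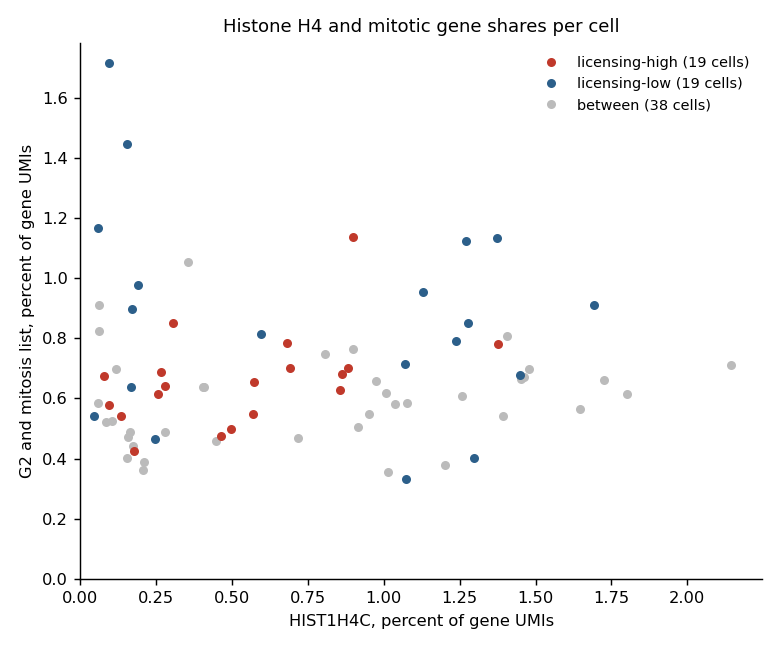
Summed G2 and mitosis list against HIST1H4C, both in percent of gene UMIs, 1 point per cell for 19 licensing-high, 19 licensing-low and 38 other cells. Licensing-low cells lie at both ends of the HIST1H4C axis (8 under 0.3%, 10 over 1%) and hold the highest mitotic share, 1.71%. The 38 other cells also reach both ends of the HIST1H4C axis, from 0.0567% to 2.14%.

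The 38 cells between the groups showed which differences ran along the ranking and which belonged to an end of it. In 4 sets of 19 cells from the lowest to the highest licensing share, TYMS had 1.09, 1.80, 2.55 and 3.39 UMIs per 10000 and USP1 had 0.707, 1.41, 1.81 and 2.47, each step upwards. For both genes intervals overlapped between neighbouring sets, as at 1.40 to 2.27 and 2.09 to 3.07 for the middle sets of TYMS. Both ends of these series were the compared groups, and the 2 middle sets took no part in that comparison. DUT had 2.83, 2.95, 4.29 and 5.10, and DEK had 2.47, 2.57, 2.69 and 4.96, with the difference in the highest set. CCNB1 had 3.13, 1.36, 1.27 and 0.669, most of the drop lying between the lowest set and the next, and BIRC5 had 3.26, 2.49, 1.34 and 1.21.

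CKS2, KPNA2 and CDK1 were also highest in the lowest set. CKS2 had 5.28, 3.18, 3.16 and 2.55 UMIs per 10000 from the lowest to the highest set. Its intervals in the last 3 sets overlapped, at 2.65 to 3.79, 2.65 to 3.74 and 2.12 to 3.05. KPNA2 had 5.55, 2.39, 3.16 and 3.47 and CDK1 had 4.39, 2.57, 3.46 and 3.76, with the lowest set above the other 3 and no fall past the second. The summed G2 and mitosis list had 92.9, 62.3, 62.7 and 67.2, so the lowest set stood above 3 sets that were close to each other. HIST1H4C had 72.5, 74.5, 73.2 and 54.1, with the highest set below the other 3. The deoxynucleotide list had 28.4, 33.4, 35.7 and 41.2 and chromatin assembly 55.1, 61.4, 65.9 and 79.04, both higher at every step. In both lists the intervals of the middle sets overlapped.

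The remaining lists are given here by their counts at 1.5-fold, beside 10.9% higher and 4.12% lower over all 1600 genes. Of 22 measured nucleolar and ribosome production genes, 6 were higher and 0 lower, with a median log2 ratio of 0.43; DKC1, the pseudouridine synthase of snoRNPs, was at 2.04 (1.51 to 2.78) and NOP56 of box C/D snoRNPs at 1.69 (1.30 to 2.20). Chaperones had 3 of 23 higher (median 0.31), close to the 10.9% of all genes, among them mitochondrial HSPD1 at 1.60 (1.41 to 1.81), with the lowest, median and highest cell at 3.48, 14.7 and 24.2 UMIs per 10000 in licensing-high cells, against 0, 10.9 and 15.2 in licensing-low cells. Splicing regulators had 5 of 32 higher (median 0.24), with TRA2B at 1.82 (1.32 to 2.53) and HNRNPR at 1.79 (1.42 to 2.26). Relative to genes of like length the nucleolar median was 0.29.

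Of 82 measured cytosolic ribosomal protein genes, 0 passed 1.5-fold in either direction, and 73 had ratios below 1, with a median log2 ratio of -0.16. Per spike-in UMI that median was 0.07, below the median of 0.26 of all genes on the same scale, so the sign of the family depends on the scale, while its median lay below that of all genes on both. The abundant member RPLP1 had 74.96 UMIs per 10000 in licensing-high cells and 85.8 in licensing-low cells. The 13 mitochondrial messenger RNAs had 0 members past the bound and a median of -0.19, which was 0.04 per spike-in UMI and 0.07 at equal depth. Of 51 measured nuclear oxidative phosphorylation genes 1, UQCRC1, was lower at 0.654 (0.452 to 0.941), and of 10 glycolysis genes 0 were past the bound. Translation factors had 1 of 29 higher, EIF2S3 at 1.70 (1.12 to 2.63). The cytoskeleton list had 1 higher, TPM3 at 1.67 (1.17 to 2.42), and 1 lower, TUBA1A at 0.576 (0.355 to 0.925), of 20; tubulin genes share reads, so TUBA1A is uncertain. The immediate early and growth factor response list had 2 of 7 lower, FOS at 0.644 (0.474 to 0.870) and HES1 at 0.579 (0.429 to 0.779). The amino acid stress list had 1 of 7 higher, MTHFD2, with ATF4 at 1.37 (1.09 to 1.74), and the p53 target CCNG1 was at 1.35 (0.910 to 2.02). Of 6 measured cholesterol synthesis genes DHCR7 alone was past the bound, with FDFT1 at 0.989 (0.706 to 1.39) and FDPS at 1.12 (0.805 to 1.57). UCHL1, a ubiquitin hydrolase used here as a neuronal marker, was at 1.55 (1.14 to 2.11), and the neurofilament gene NEFM at 1.36 (0.882 to 2.12). The cell medians of NEFM went the other way, at 0 UMIs per 10000 in licensing-high and 0.422 in licensing-low cells. A single licensing-high cell held 27 of the 59 NEFM UMIs of its group.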

How the data were processed

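The deposited table holds raw UMI counts, whole numbers per gene (rows) and cell (columns). Per the submitters' processing notes, tools included STAR 2.4.0a and cutadapt 1.2.1, with build hg19 (GRCh37). The sources used here do not give the UMI counter, annotation or cell filter. Genes with near-identical copies are uncertain. A row called GENE (0.197% of all values) and 80 spike-in rows were kept out of the 17513 gene rows. Each column is 1 cell, 0 pairs of columns were identical and no doublet caller was run on the 76 cells.

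Pooled levels, exact Poisson and Clopper-Pearson 95% intervals and medians were computed with Python 3.11.15 and SciPy 1.17.1, and TMM factors with edgeR 4.0.16. The call rule was tested on simulated cells that differed only by counting error and set changes. That does not cover the spread between real cells or the choice of cells by rank. Transcript lengths are from GENCODE 29 for 1505 of the 1600 genes (94.1%). With 1 sample a group, no gene has a p-value. Genes named are the 15 licensing genes; the 12 highest and 12 lowest past 1.5-fold with cell medians in the same direction, ranked by the interval bound nearest 1; list members past 1.5-fold in the replication, nucleotide supply, repair, chromatin, histone and mitosis lists; and the most abundant members of each list. Others were chosen after their values were seen. Some list members are not reported here. The members and lists were chosen with earlier results of these data known.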

Additional observations from a re-analysis of the deposited data

How the results depend on the processing

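Main counts were 174 higher and 66 lower of 1600 genes, with 27 of 61 measured members higher in the 4 replication-related lists. They were 451, 200 and 42 at a minimum mean of 1 UMI, with 2798 genes and 92 list members measured. At 5 UMIs they were 37, 10 and 10, with 642 genes and 26 list members measured. With no minimum they were 2996, 2092 and 68, with 10569 genes and 142 list members measured. They were 405 and 216 at a lower fold bound, 38, 7 and 9 at 2-fold, and 369 and 20 per spike-in UMI. With cells thinned to 10940 UMIs (71 cells, 786 genes and 30 list members measured) they were 50, 42 and 13. With 38 against 38 cells they were 68, 13 and 16, 25 against 25 gave 40 lower, and 111 were higher relative to like length. The minimum and the fold bound set their own changes by construction. For group size, the spike-in scale, thinning and length the cause was not tested.

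Of 22 alternatives, 21 were planned and 1, without the cell of rank 1, was chosen after seeing the data. The held-out licensing genes past the fold bound of each alternative numbered 12 to 15 in the alternatives run for them. That bound was 1.5-fold except in the alternatives at a lower fold bound and at 2-fold. The ratio of CDC45 ranged from 0.44 (thinned) to 1.57. CCNB1 ranged from 0.19 to 0.42, TYMS from 1.90 to 3.66, CDC25A was at 1.39 when thinned, and DNMT1 at 1.42 with cells ranked by the 9 licensing genes other than MCM2 to MCM7. Of the 52 named genes past 1.5-fold, 35 were inside the bound in at least 1 alternative and 17 in none; 21 moved by over 1.5 times in at least 1. With 38 against 38 cells 27 were inside it, among them BLVRB (0.703), JAGN1 (0.792), KIF2C (0.943), CCNB2 (0.749), HELLS (1.31), PVR (1.49), DNTTIP2 (1.35), DCTPP1 (1.21) and TPR (1.47). With the 9 genes 12 were, among them C14orf1 (0.889), and when thinned 11, among them MTHFD1 (1.14). CDK4 was inside the bound in 11 alternatives and UCHL1 in 9. Of 2346 single gene values 115 moved and 1 was reversed, RFC2 at 0.90 when thinned. No paired analysis was possible because the labels give 1 group. Depth limits genes under 2 UMIs per cell.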
